A study of Mus musculus with 177 samples.

Results

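Rod photoreceptors are the retinal cells that detect dim light, and 9 genes that serve them are described here in the eye of newborn mice: Gnat1, Pde6a, Pde6b, Pde6g, Cnga1, Sag, Prph2, Rom1 and Nrl. They were chosen by name, through probe sets annotated to exactly 1 gene, and all 9 had exactly 1 such probe set, among 19937 genes measured. Values came from 56 whole-eye arrays of C57BL/6 mice at postnatal day 7. One further array, labelled Eye H40 replicate 9, had the profile of lung and was left out.

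All mice first breathed either a gas with an inspired oxygen fraction of 0.08 (hypoxia) or air, at 0.21 (normoxia), for 120 min. Next came a reoxygenation phase of 30 min in 21, 40, 60 or 100% oxygen. Every group then spent 150 min in air before the eyes were taken. The groups are named by the gas of the initial phase and the oxygen percentage of the second one: H21 (n = 9), H40 (n = 9), H60 (n = 9) and H100 (n = 11) had hypoxia, and N21 (n = 9) and N100 (n = 9) did not. N21 breathed air throughout. The protocol text in the labels describes RNA from a blood kit after a Ficoll gradient, whereas the design text names solid tissue. Animals were randomized to the groups, but no label ties an eye array to a particular animal.

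In a rod, light activates an opsin pigment, which activates the G protein transducin. Transducin releases the inhibition of the enzyme phosphodiesterase 6, the enzyme breaks down cyclic GMP, and cation channels held open by cyclic GMP close. These proteins sit in and around the outer segment, a stack of membrane discs. In the mouse, rods are made around birth, and their outer segments grow over the following weeks, so that the retina at this age is still maturing. The genes fall into these roles: Gnat1 encodes the rod transducin alpha subunit. Pde6a and Pde6b encode the catalytic subunits of phosphodiesterase 6, and Pde6g encodes its inhibitory subunit. Cnga1 encodes a subunit of the cyclic GMP-gated channel. Sag encodes arrestin, which shuts off the activated pigment. Prph2 and Rom1 encode membrane proteins that shape the disc rim. Nrl encodes the transcription factor that directs photoreceptor precursors to the rod fate.

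The sequences before their starts are shown for the 3 genes whose window held letters recognised by the photoreceptor factors CRX or NRL. RefSeq's promoter table (build GRCm38.p6) held a window for 6 of the 9 genes, and the 250 bases before the start were searched on both strands for TAATCC, letters of a CRX site, and TGCTGA, letters of an NRL site. The windows are those of Pde6b (chr5:108388123-108388372, plus strand), Cnga1 (chr5:72642753-72643002, minus strand) and Sag (chr1:87803430-87803679, plus strand). Those of Pde6b and Cnga1 end at the start of the annotated gene, while that of Sag lies inside the annotated gene, before the transcript start that the promoter table uses. Each is written 5′ to 3′ along the gene, with matches in capitals.
Pde6b: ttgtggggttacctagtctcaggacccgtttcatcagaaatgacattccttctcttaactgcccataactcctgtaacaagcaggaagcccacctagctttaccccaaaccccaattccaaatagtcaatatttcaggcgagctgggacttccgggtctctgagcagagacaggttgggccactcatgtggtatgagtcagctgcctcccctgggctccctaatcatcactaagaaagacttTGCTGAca
Cnga1: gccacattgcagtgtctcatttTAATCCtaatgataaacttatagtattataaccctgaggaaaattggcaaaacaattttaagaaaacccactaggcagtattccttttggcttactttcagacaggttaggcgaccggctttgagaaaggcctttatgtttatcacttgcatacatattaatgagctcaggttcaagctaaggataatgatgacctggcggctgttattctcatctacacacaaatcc
Sag: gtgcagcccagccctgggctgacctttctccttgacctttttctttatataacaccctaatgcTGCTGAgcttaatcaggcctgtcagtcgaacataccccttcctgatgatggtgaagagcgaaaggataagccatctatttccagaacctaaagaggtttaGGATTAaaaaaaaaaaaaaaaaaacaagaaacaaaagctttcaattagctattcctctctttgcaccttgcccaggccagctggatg
The NRL letters began 8 bases before the start in Pde6b and 187 before it in Sag. The CRX letters began 228 bases before the start in Cnga1, and in Sag they lay on the opposite strand, 87 bases before it. Neither motif was in the windows of Prph2, Rom1 and Nrl. Of 32851 promoter windows of the same length, 6.25% held the CRX letters, 16.1% the NRL letters and 0.96% both. A match is a description of letters and not evidence of binding, and its part in the levels of these genes was not tested.

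The 9 genes marked the eye. Their mean was 9.17 to 10.79 on the log2 scale over the 56 eye arrays (median 9.86), 4.91 to 5.62 over the 61 lung arrays and 4.72 to 9.44 over the 59 brain arrays (median 5.04). The brain maximum came from 1 array, labelled Brain H40 replicate 7. The array labelled Eye H40 replicate 9 had a mean of 5.59 for the rod genes and 5.86 for lens genes, against at least 11.83 for lens genes on the eye arrays used. Tissues appear to have been normalized separately, so these levels are set side by side without a test.

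**Figure D1:**
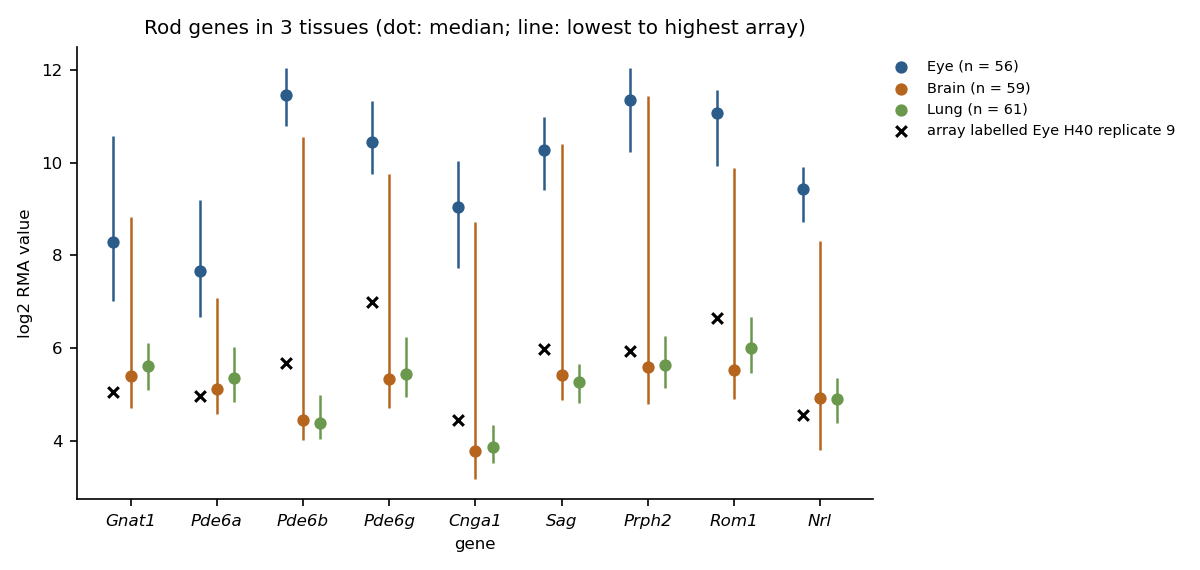
Level of each rod gene (log2 RMA value, vertical axis) in eye, brain and lung, with the median as a dot and the lowest to highest array as a line. The eye medians lie above the brain and lung medians for each gene, and the cross for the array labelled Eye H40 replicate 9 lies below the lowest eye array used.

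None of the 9 genes passed the test for a difference between hypoxia and normoxia or between oxygen levels. When the 4 hypoxia groups were set against both normoxia groups, 17 of the 19937 genes (0.0853%) had an adjusted p under 0.05 by limma with Benjamini-Hochberg adjustment, and 0 of the 9 rod genes did. One rod gene, Pde6g, had an unadjusted p under 0.05, as did 5.02% of all genes. With array quality weights in the fit, 5 of the 9 had an unadjusted p under 0.05 and none an adjusted one. The weights also raised the calls over all genes from 17 to 53. The 5.02% is from the fit without weights, and the share with weights is not given here. For 8 of the 9 genes the value lay below 0, with a median log2 change of -0.15, against a median of 0.00 over all genes, of which 48.2% lay below 0. The 9 genes varied together between eyes, as described below, so their signs here and in later comparisons are not independent. In whole eyes, fewer rods and less RNA per rod cannot be told apart.

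Gnat1 had the widest spread. In N21 it ran from 7.79 to 10.20 (median 8.28) and in N100 from 7.52 to 10.57 (median 8.61). In the hypoxia groups the lowest, median and highest values were 7.18, 8.13 and 10.37 in H21, and 7.01, 8.16 and 9.20 in H40. In H60 they were 7.10, 8.41 and 9.06, and in H100 they were 7.57, 8.03 and 10.29. All 6 groups overlapped, and the arrays above 10 came from both normoxia groups and from H21 and H100. The difference of all hypoxia from all normoxia was -0.42 ± 0.23 (SE, limma adjusted p = 1.00), a change of -25.0% with a 95% interval from -45.3 to 2.88%. Gnat1 was highest on average in N100 and lowest in H40, and the widest gap between neighbouring group means, 0.28, was below the within-group SD of 0.84.

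The phosphodiesterase genes gave values in the same direction. Pde6g ran from 9.79 to 11.06 in N21 (median 10.50) and from 9.98 to 11.32 in N100 (median 10.80). Its lowest, median and highest values were 9.99, 10.44 and 11.18 in H21, and 9.76, 10.36 and 10.91 in H40. In H60 they were 9.87, 10.31 and 11.09, and in H100 they were 9.91, 10.29 and 10.88. The groups overlapped over most of their ranges. All hypoxia minus all normoxia was -0.24 ± 0.11 (95% interval -0.45 to -0.02, unadjusted p = 0.0295, limma adjusted p = 0.93). Pde6a, at 6.67 to 9.20 over all eyes, differed by -0.31 ± 0.18 (95% interval -0.66 to 0.04). Pde6b, at 10.78 to 12.05, differed by -0.14 ± 0.09 (95% interval -0.32 to 0.05). Each of the 3 genes had its highest mean in N100 and its lowest in H40, with neighbouring means closer than the within-group SD.

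The channel gene Cnga1 ran from 7.73 to 10.04 over all eyes, with group medians between 8.74 (H40) and 9.19 (H21). Its change after hypoxia was -0.03 ± 0.16 (95% interval -0.35 to 0.28). The order of its group means began with H21, not with a normoxia group. Sag, the arrestin gene, ran from 10.12 to 10.86 in N21, from 9.78 to 10.98 in N100 and from 9.40 to 10.97 in H21. In H40 it ran from 9.68 to 10.60, in H60 from 9.51 to 10.69 and in H100 from 9.95 to 10.84. The lower ends of the H21, H40 and H60 ranges lay below both normoxia ranges, and the groups otherwise overlapped. Its change was -0.20 ± 0.10 (95% interval -0.39 to 0.00, unadjusted p = 0.0524, limma adjusted p = 0.99).

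For the disc rim genes and Nrl, the 95% intervals of the change all included 0. Prph2 changed by -0.11 ± 0.11 (95% interval -0.33 to 0.11) and Rom1 by -0.15 ± 0.10 (95% interval -0.35 to 0.06). Prph2 had 1 low value in N21, 10.22 in replicate 7, beside a group median of 11.50. The same array was also the lowest of N21 for Pde6b, Pde6g, Rom1 and Nrl. Nrl ran from 8.73 to 9.83 in N21 (median 9.56) and from 9.02 to 9.73 in N100 (median 9.44). Its medians in the hypoxia groups were 9.59 in H21, 9.31 in H40, 9.43 in H60 and 9.38 in H100, inside both normoxia ranges. The change of Nrl was 0.00 ± 0.08, with a 95% interval from -0.15 to 0.16. Its 6 group means spanned 0.09, against a within-group SD of 0.28.

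**Figure D2:**
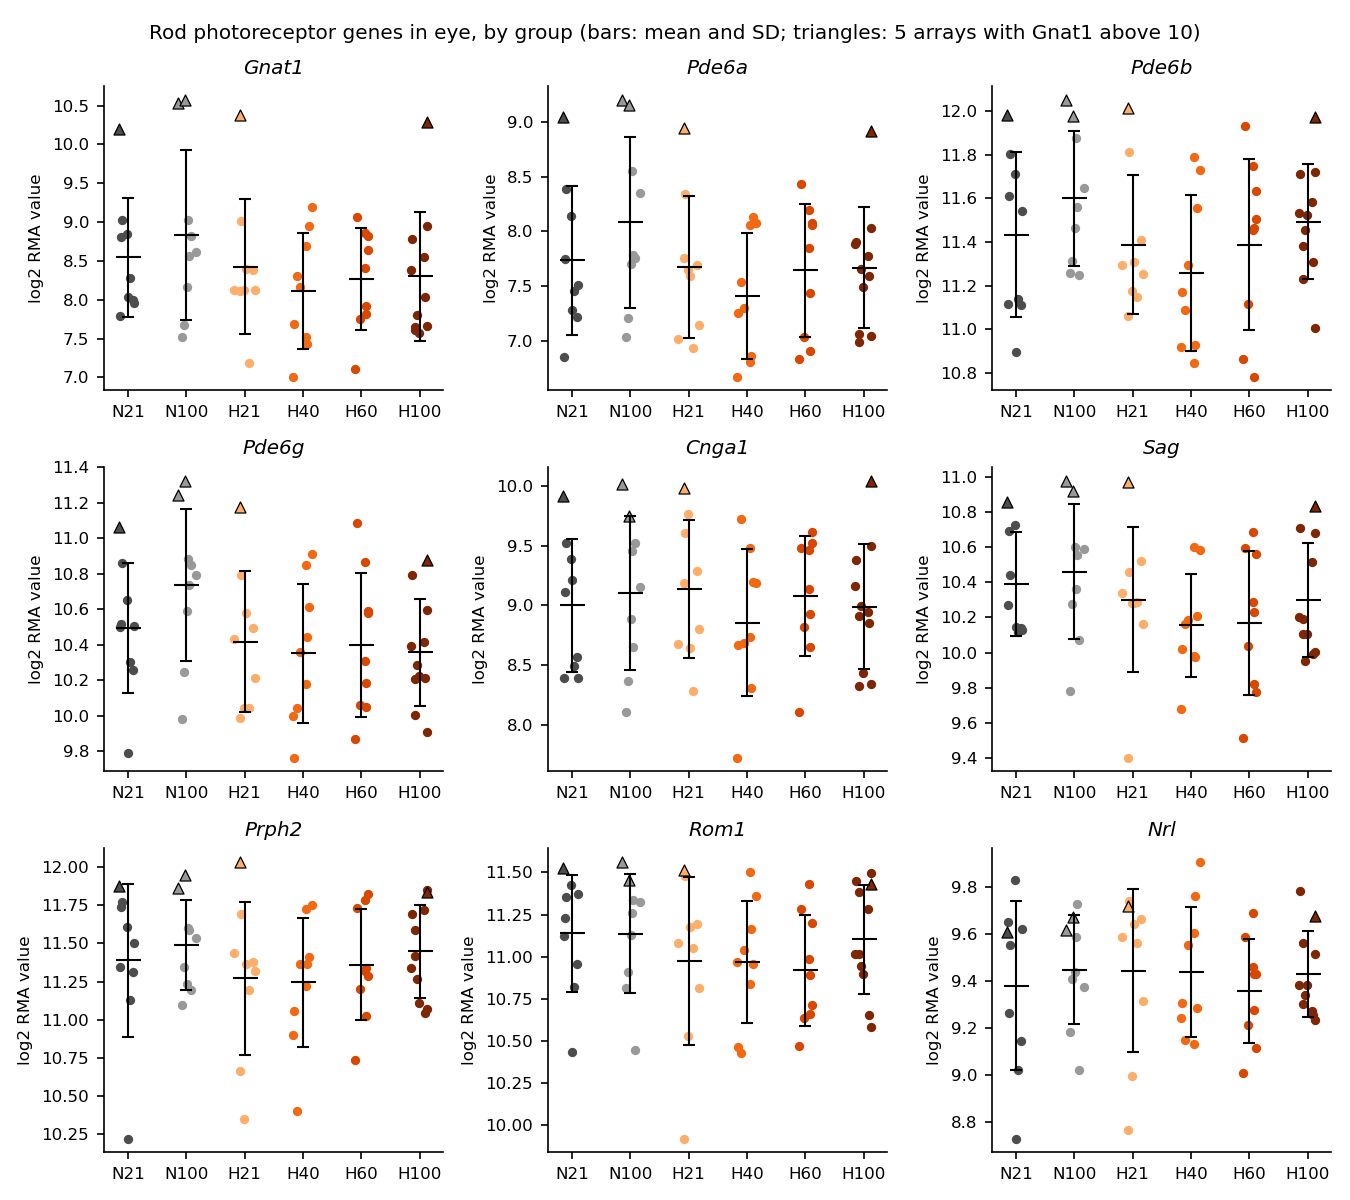
Values of the 9 rod genes (log2 RMA value, vertical axes, each on its own scale) in the 6 eye groups. Points are arrays, bars are the mean and SD, and triangles are the 5 arrays with Gnat1 above 10. The groups overlap for every gene, and Gnat1 spans 7.01 to 10.57.

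On Gnat1, 5 arrays stood apart, at 10.20 to 10.57, while the other 51 lay at or below 9.20. The step between them was 1.00, and the next widest step in the sorted values was 0.25. The 5 arrays were N21 replicate 1, N100 replicates 1 and 4, H21 replicate 2 and H100 replicate 2. They were also the 5 highest arrays for Pde6a, Pde6b and Sag, and 4 of them were among the 5 highest for Pde6g, Cnga1 and Prph2. None was among the 5 highest for Nrl or for the mean of lens genes. All 5 belonged to the first of 3 runs of consecutive sample records, which held 37 of the 56 arrays, and read as female from sex-linked genes, as did 38 of the 56. For the mean of progenitor and dividing cell genes, 4 of them were among the 5 lowest arrays. They were also the 5 highest arrays for the means of bipolar cell genes and of cornea genes.

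Without these 5 arrays, which were singled out by their Gnat1 values, the change after hypoxia was -0.18 ± 0.17 for Gnat1 and -0.16 ± 0.10 for Pde6g. Cnga1 then had a value of 0.08 ± 0.15 in place of -0.03. No rod gene had an adjusted or unadjusted p under 0.05, and 6 genes of all tested were called, against 17 with the 5 arrays in.

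Values also differed between runs of sample records. The first run held 24 hypoxia and 13 normoxia arrays, and there the mean of hypoxia minus normoxia was below 0 for 9 of 9 genes, by -0.53 for Gnat1 and -0.32 for Pde6g. In the second, with 5 and 2 arrays, it was below 0 for 8 of 9. In the third, with 9 and 3 arrays, it was below 0 for 2 of 9, with -0.13 for Gnat1, 0.05 for Pde6g and 0.24 for Nrl. With the run as a block in the fit, the changes were -0.41 ± 0.23 for Gnat1 and -0.22 ± 0.10 for Pde6g, and none of the 9 genes was called. N100 has no array in the third run. Sex as read from the arrays was uneven between groups. Female and male arrays numbered 7 and 2 in N21, 5 and 4 in N100, and 4 and 5 in H21. In H40 and in H60 they numbered 8 and 1, and in H100 they numbered 6 and 5. With sex as a covariate, the change of Gnat1 after hypoxia was -0.42 ± 0.23, and none of the 9 genes was called.

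The comparisons of single groups with N21 share the N21 arrays and are therefore not independent of each other. In H21 minus N21, 1 gene of 19937 (0.00502%) was called by limma and none of the 9, while 2.25% of genes and no rod gene had an unadjusted p under 0.05. The rod values ran from -0.16 (Rom1) to 0.14 (Cnga1), with 7 of 9 below 0, as were 48.5% of all genes. In H40, H60 and H100 against N21, 0 genes (0%) were called, and no rod gene had an unadjusted p under 0.05, against 2.11%, 5.4% and 5.31% of all genes. Below 0 were 8 of 9 rod genes in H40, 8 in H60 and 6 in H100, against 47.3%, 44.1% and 45.8% of all genes. Gnat1 gave -0.12 ± 0.37 in H21, -0.44 ± 0.37 in H40, -0.28 ± 0.37 in H60 and -0.25 ± 0.36 in H100. Nrl gave values between -0.02 and 0.06 in these 4 comparisons.

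Oxygen at 100% without hypoxia gave no call. In N100 minus N21, 0 genes (0%) were called by limma, and 3.9% of all genes but no rod gene had an unadjusted p under 0.05. The rod values lay above 0 for 8 of 9 genes, as did 54.2% of all genes, with 0.28 ± 0.37 for Gnat1, 0.35 ± 0.29 for Pde6a and 0.25 ± 0.17 for Pde6g. Without the 5 arrays that stood apart, 2 of which are in N100, 4 of the 9 lay below 0 and Gnat1 was at 0.00 ± 0.29. With the mean of bipolar, amacrine and ganglion cell genes as a covariate, 8 of the 9 lay below 0, with Gnat1 at -0.23.

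Hypoxia and normoxia could also be compared where both had 100% oxygen, and this comparison shares the N100 arrays with the previous one. In H100 minus N100, 0 genes (0%) were called by limma, and 8.7% of all genes had an unadjusted p under 0.05, as did 1 of the 9 rod genes. All 9 rod values lay below 0, as did 51.1% of all genes. The gene with an unadjusted p under 0.05 was Pde6g, at -0.38 ± 0.17 (95% interval -0.71 to -0.05, p = 0.0244, limma adjusted p = 0.51). With array quality weights 4 of the 9 had an unadjusted p under 0.05, with a lowest limma adjusted p of 0.059. The weights also raised the calls over all genes from 0 to 432 of 19937. The 8.7% is from the fit without weights, and the share with weights is not given here. Without weights, Gnat1 was at -0.53 ± 0.36, with a 95% interval from -1.25 to 0.18. Without the 5 arrays, 5 of the 9 lay below 0 and Pde6g was at -0.28 ± 0.16 (limma adjusted p = 0.73). With the run of records as a block in the fit, 6 of the 9 lay below 0 and none had an unadjusted p under 0.05. H100 has 4 arrays in the third run and N100 has none.

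The level of oxygen after hypoxia gave no call either. In H100 minus H21, over the slope from 21 to 100% oxygen within the hypoxia groups, and for the interaction of hypoxia with 100% oxygen, 0 genes (0%) were called by limma. Unadjusted p values under 0.05 were found for 4.27%, 5.71% and 3.95% of all genes and for no rod gene. The slope, as the change from 21 to 100% oxygen, ran from -0.06 ± 0.23 (Cnga1) to 0.20 ± 0.16 (Prph2). The interaction ran from -0.41 ± 0.52 (Gnat1) to 0.13 ± 0.23 (Rom1).

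**Figure D3:**
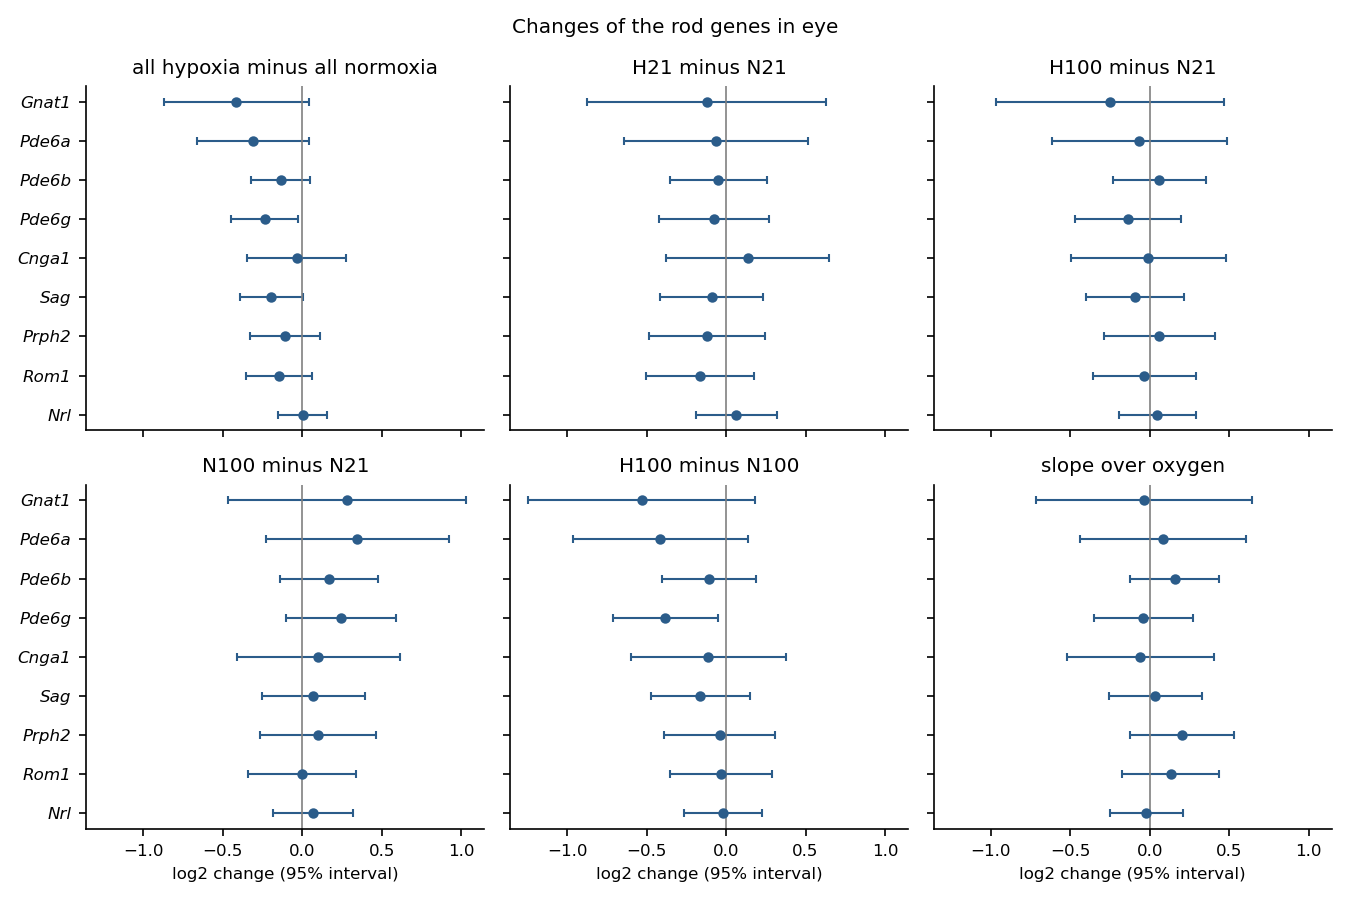
Log2 change of each rod gene with its 95% interval (horizontal axis) in 6 of the 10 comparisons, from limma. Each interval includes 0 except those of Pde6g in all hypoxia minus all normoxia and in H100 minus N100, and Gnat1 has the widest intervals.

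Other phototransduction and outer segment genes gave similar counts, while photoreceptor transcription factors and cone genes did not. Of 12 further phototransduction genes, 11 lay below 0 in all hypoxia minus all normoxia (median -0.12) and 0 were called. The largest values were those of Slc24a1, the rod cation exchanger, at -0.24 ± 0.13, and Guca1a, a guanylate cyclase activator, at -0.17 ± 0.11. Of 12 outer segment and upkeep genes, 11 lay below 0 (median -0.09), with Rdh12, a retinol dehydrogenase, at -0.22 ± 0.16 and Tulp1 at -0.17 ± 0.08. Of 7 photoreceptor transcription factors, 4 lay above 0 (median 0.11). Rorb, a nuclear receptor that acts upstream of Nrl, was at 0.26 ± 0.08 (limma unadjusted p = 0.000999, adjusted p = 0.26), and Samd7 was at 0.23 ± 0.10. Cone genes split evenly, 6 of 12 below 0. The cone opsin gene Opn1mw was at -0.30 ± 0.12 and the cone arrestin gene Arr3 at -0.28 ± 0.14. The highest cone gene was Ccdc136, at 0.24 ± 0.09 (limma unadjusted p = 0.00719, adjusted p = 0.61).

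Genes of the other cells of the eye were measured beside them, and none of the genes in these lists was called in this comparison. Below 0 were 9 of 9 bipolar cell genes (median -0.11; Scgn -0.51 ± 0.25, Vsx1 -0.37 ± 0.18), and 8 of 12 amacrine and ganglion cell genes (median -0.06; Nefm -0.17 ± 0.08, Sncg -0.16 ± 0.09). So were 8 of 10 pigment epithelium and melanocyte genes (median -0.07), among them Rpe65, the isomerase of the visual cycle, at -0.43 ± 0.20, and Rgr at -0.21 ± 0.09. Mitf, in the same list, was at -0.21 ± 0.05 (limma unadjusted p = 0.000148, adjusted p = 0.11). Of the lens genes, 10 of 12 lay below 0 with a median of -0.02 (Gja3 0.06 ± 0.08, Cryba2 -0.06 ± 0.10). All 7 skeletal muscle genes lay below 0 (median -0.27), 6 of them with an unadjusted p under 0.05 (Myh8 -0.33 ± 0.16, Mylpf -0.31 ± 0.13). Müller glia genes lay below 0 in 2 of 9 cases (Sox9 0.12 ± 0.07, Aqp4 -0.10 ± 0.09), and progenitor and dividing cell genes in 2 of 6 (Mki67 0.20 ± 0.14, Top2a 0.15 ± 0.14).

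The remaining lists mark tissue at the front of the eye, blood and vessels, or lung. Cornea genes lay below 0 in 5 of 7 cases (Krt12 -0.22 ± 0.12, Krt14 0.16 ± 0.11) and endothelial genes in 5 of 6 (Emcn -0.11 ± 0.07, Tek -0.10 ± 0.06). Red blood cell genes lay below 0 in 1 of 3 (Alas2 0.11 ± 0.09, Slc4a1 0.06 ± 0.07). Type 2 alveolar cell genes, a check for lung, lay below 0 in 3 of 7 (Sftpd 0.46 ± 0.23, Sftpc 0.14 ± 0.16). With the mean of the bipolar, amacrine and ganglion cell genes as a covariate, the changes of the rod genes ran from -0.06 ± 0.05 (Pde6g) to 0.20 ± 0.10 (Cnga1), with Gnat1 at -0.03 ± 0.11. The part of the retina's share or state in the rod values was not tested.

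These genes differed widely between eyes of the same group. The within-group SD of Gnat1, 0.84, lay at the 99.6th percentile of all genes, whose median SD was 0.22, and within H21, its widest group, the highest and lowest eyes differed 9.15-fold. Pde6a had an SD of 0.64 and a range of 4.59-fold within its widest group, N21, and Cnga1 an SD of 0.57 and a range of 3.97-fold within H40. The SD was 0.40 for Prph2, 0.38 for Pde6g, 0.37 for Rom1, 0.36 for Sag and 0.34 for Pde6b. Nrl varied least, with an SD of 0.28, at the 75.2th percentile, and a range of 2.15-fold within its widest group, N21. No label gives litter, body weight or side of the eye, and their part in this spread was not tested.

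The genes varied together, though not as 1 block. Correlations were computed over the 51 arrays without the 5 that stood apart, after subtracting group means, for 36 pairs of rod genes and 36 pairs of a rod gene with the mean of a list. Permutation p values (two-sided, 100000 permutations) were adjusted over these 72 relations, and 1e-05 is the smallest p these permutations can give. Over the 36 pairs of rod genes, Pearson's r ran from 0.09 to 0.91 with a median of 0.70, and 33 pairs had an adjusted p under 0.05. Within the 3 runs of records, of 32, 7 and 12 arrays, the median r was 0.73, 0.77 and 0.71.

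Gnat1 and Pde6a were the closest pair, with r = 0.91 and Spearman's rho = 0.91 (permutation p = 1e-05, adjusted 1.8e-05). Without the 2 arrays farthest from the median of Gnat1 r was 0.90, and within the runs it was 0.91, 0.86 and 0.97. Rom1 and Nrl had r = 0.86 and rho = 0.86 (permutation p = 1e-05, adjusted 1.8e-05), with 0.84 after leaving out 2 arrays and 0.88, 0.89 and 0.90 within runs. Prph2 and Rom1, the disc rim pair, also had r = 0.86, with rho = 0.91 (permutation p = 1e-05, adjusted 1.8e-05), 0.88 without 2 arrays and 0.87, 0.91 and 0.94 within runs. Cnga1 and Nrl formed the weakest pair, with r = 0.09 and rho = 0.11 (permutation p = 0.544, adjusted 0.552), 0.12 without 2 arrays, and 0.15, 0.56 and -0.14 within runs. Gnat1 with Nrl lay between, at r = 0.36 and rho = 0.38 (permutation p = 0.0109, adjusted 0.0133), with 0.31 without 2 arrays and 0.22, 0.77 and 0.36 within runs.

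**Figure D4:**
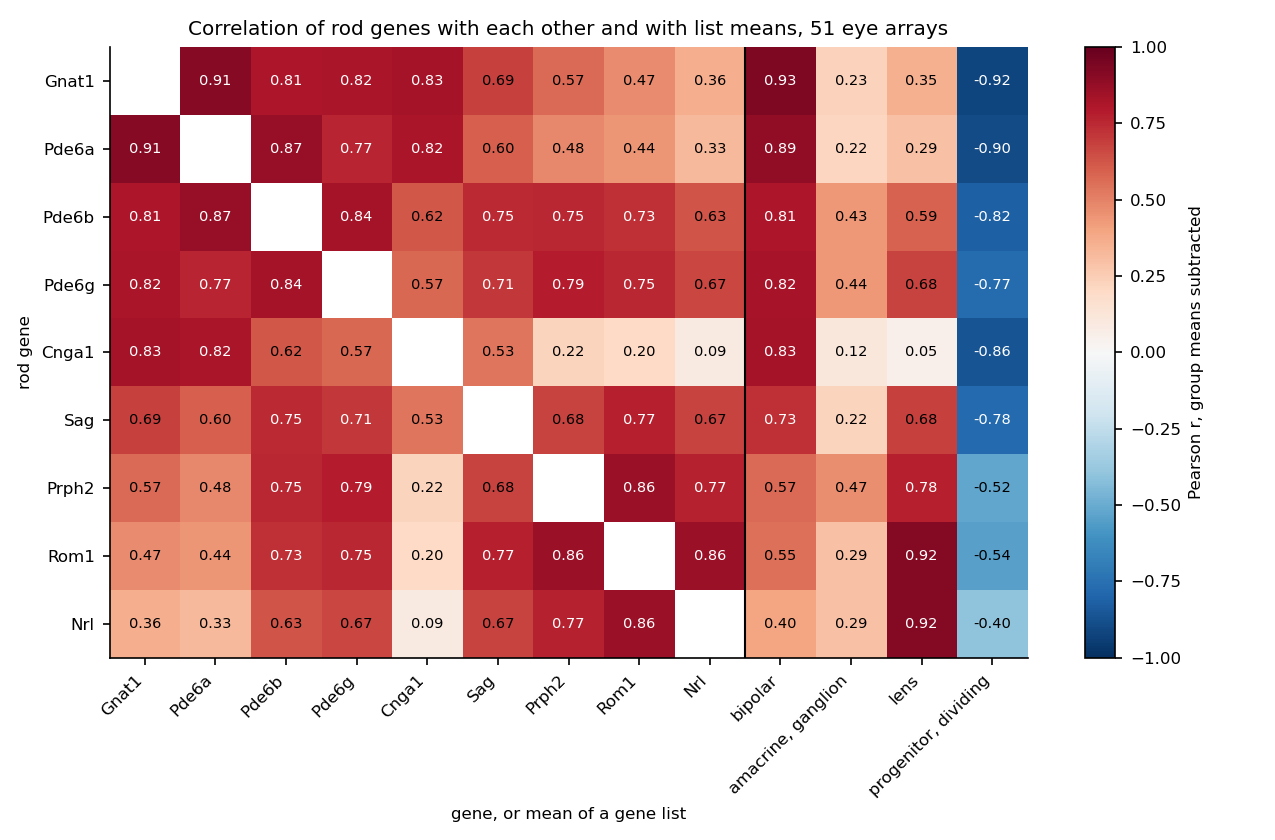
Pearson's r between rod genes, and between each rod gene and the mean of 4 lists, over 51 eye arrays with group means subtracted (colour scale from -1 to 1). Gnat1, Pde6a and Cnga1 reach -0.92, -0.90 and -0.86 with progenitor and dividing cell genes, while Rom1 and Nrl reach 0.92 with lens genes.

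Gnat1 tracked genes of bipolar cells, and inversely those of progenitor and dividing cells. With the mean of bipolar cell genes, which mark the interneurons that receive rod and cone signals, r was 0.93 and rho 0.93 (permutation p = 1e-05, adjusted 1.8e-05), with 0.93 without 2 arrays and 0.93, 0.94 and 0.95 within runs. With the mean of progenitor and dividing cell genes r was -0.92 and rho -0.91 (permutation p = 1e-05, adjusted 1.8e-05), with -0.91 without 2 arrays and -0.92, -0.88 and -0.93 within runs. Arrays with high Gnat1 thus had a high bipolar mean and a low progenitor and dividing cell mean. With the mean of amacrine and ganglion cell genes r was 0.23 and rho 0.22 (permutation p = 0.135, adjusted 0.15), with 0.17 without 2 arrays and 0.46, 0.74 and -0.37 within runs. With lens genes its r was 0.35 and rho 0.39 (permutation p = 0.0134, adjusted 0.016), with 0.34 without 2 arrays and 0.20, 0.73 and 0.40 within runs.

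Nrl and Rom1 tracked lens genes most closely of the 9. Prph2, Sag, Pde6g and Pde6b had r = 0.78, 0.68, 0.68 and 0.59 with the lens mean. With the bipolar mean they had r = 0.57, 0.73, 0.82 and 0.81. For Nrl and the lens mean r was 0.92 and rho 0.91 (permutation p = 1e-05, adjusted 1.8e-05), with 0.89 without 2 arrays and 0.88, 0.81 and 0.92 within runs. For Rom1 and the lens mean r was 0.92 and rho 0.92 (permutation p = 1e-05, adjusted 1.8e-05), with 0.90 without 2 arrays and 0.93, 0.77 and 0.94 within runs. Nrl with progenitor and dividing cell genes gave r = -0.40 and rho = -0.43 (permutation p = 0.0049, adjusted 0.0062). Without 2 arrays r was -0.43, and within runs it was -0.39, -0.66 and -0.21. Cnga1 with the lens mean gave r = 0.05 and rho = 0.08 (permutation p = 0.722, adjusted 0.722), with 0.10 without 2 arrays and 0.09, 0.37 and -0.18 within runs. The mean of Nrl was 9.42 ± 0.24 (SD, n = 37) in the first run, 9.72 ± 0.15 (n = 7) in the second and 9.23 ± 0.23 (n = 12) in the third.

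**Figure D5:**
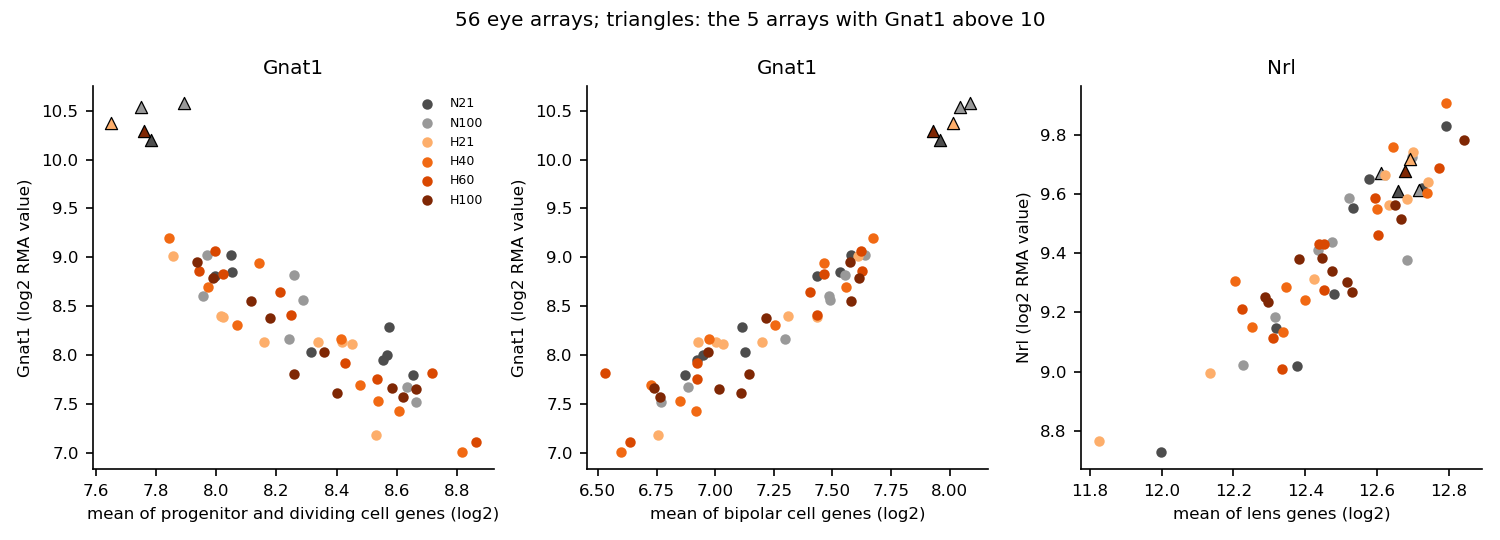
Gnat1 against the mean of progenitor and dividing cell genes and against the mean of bipolar cell genes, and Nrl against the mean of lens genes (all log2), over 56 eye arrays coloured by group, with the 5 arrays above 10 in Gnat1 as triangles. The groups are mixed along each gradient, and over the other 51 arrays r was -0.92, 0.93 and 0.92.

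The genes most like the 9, by their mean Pearson's r with them over the 56 arrays after subtracting group means, were Aipl1, Krt12, Tdrd7, Ankrd33, Isl1, Fam169a, Abca4, Gnb5, Gpr179 and Tlcd3b. Their mean r ran from 0.79 for Aipl1, a chaperone needed for phosphodiesterase 6, to 0.78 for Tlcd3b. The median over the 19928 other genes was 0.04. Krt12 is a keratin of the corneal epithelium and Isl1 a transcription factor of bipolar and other retinal neurons. Over the 51 arrays without the 5 that stood apart, Aipl1 had a mean r of 0.74, Isl1 0.74 and Krt12 0.73.

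The lists differed in how close they came. Over the 56 arrays, the median mean r was 0.69 for the 12 other phototransduction genes and 0.67 for the 12 outer segment and upkeep genes. It was as high, 0.68, for the 9 bipolar cell genes, and 0.59 for the 10 pigment epithelium and melanocyte genes. It was 0.39 for cone genes and 0.23 for the 7 photoreceptor transcription factors, among which Esrrb reached 0.73, Crx 0.43 and Otx2 0.03, and Neurod1, which is active in early photoreceptors, had -0.25. Over the 51 arrays these values were 0.63 for Esrrb, 0.41 for Crx, 0.15 for Otx2 and -0.05 for Neurod1. Lens genes had a median of 0.48, and progenitor and dividing cell genes one of -0.55, with Top2a at -0.80.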

How the data were processed

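The authors deposited log2 values after RMA, which the submitters' processing notes name without a version; RMA corrects background, makes the distributions of arrays equal and summarizes probes into probe sets. Sorted deposited log2 values of any eye array departed from the eye average by at most 0.0961. The number of arrays limits the precision.

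Of 34760 probe sets, 21640 are annotated to 1 gene, 1321 to several and 11799 to none; 21553 matched the RefSeq gene table, and the probe set with the highest mean per gene was kept (19937 genes). One eye array with the profile of lung was left out.

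All 6 eye groups were fitted together with limma 3.58.1 in R 4.3.3 (lmFit and eBayes, two-sided, Benjamini-Hochberg over all genes), and genes with an adjusted p under 0.05 were called. Errors written ± are standard errors of the fit unless marked SD, and p-values measure the spread between these arrays, part of which may be technical. The fit was tested on simulated data. Runs of records follow the numbering of the records and are no stated batch; sex was read from Xist and Y-linked genes. The members, lists and comparisons were chosen with earlier results of these data known.

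All 9 members are named. Each other list is represented by its called genes, up to 4, or else by the 2 with the largest absolute change, and the 10 genes with the highest mean correlation with the members are named; a few listed genes were named beyond this rule after their values were seen. Alternatives covered array weights, a filter on the dimmest 40% of genes, normalization, blocks, covariates, arrays left out and all probe sets. In their table a change of sign was counted apart from the calls.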

Additional observations from a re-analysis of the deposited data

Results flagged for a closer look

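In Prph2, N21 replicate 7 had a log2 value of 10.22, while the other N21 arrays ran from 11.13 to 11.88. Its gap to the nearest array took up more of the group's range than the critical value for 9 samples allows. This was 1 such array in 45 groups of a gene and condition examined, and chance alone marks about 1 in 20. H100, with 11 arrays, was not examined. N21 replicate 7 was also the lowest N21 array for Pde6b, Pde6g, Rom1 and Nrl, though it was not flagged there. The cause was not tested.

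The array labelled Brain H40 replicate 7, outside the eye comparisons, had a mean of 9.44 for the 9 rod genes, while the normoxia brain arrays ran from 4.78 to 5.22. Its lens genes, at 11.83, were also the highest among brain arrays. The cause was not tested.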

How the results depend on the processing

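None of the 9 rod genes was called in any of the 10 comparisons under the 16 alternatives or with each of the 56 arrays left out in turn; not every alternative applied to every comparison. For all hypoxia minus all normoxia, the lowest adjusted p among the rod genes ran from 0.29 (array quality weights) to 1.00 over the alternatives and from 0.58 to 1.00 with 1 array left out. For H100 minus N100 array quality weights gave 0.059, with 432 of all genes called against 0. The count of all genes called in all hypoxia minus all normoxia ran from 0 (first run only) to 53 (array quality weights). No rod gene was called in the main fit, so the alternatives had no call to lose. Of the changes of the rod genes, 124 of 1350 turned sign under the alternatives, and 157 of 5040 with 1 array left out. Adding the retina genes as a covariate turned Pde6b, Cnga1 and Prph2 in all hypoxia minus all normoxia, and left 1 of 9 below 0 in H100 minus N100. With 1 array left out, the change of Gnat1 after hypoxia ran from -0.50 (without N100 replicate 8) to -0.31 (without N100 replicate 4); over the other alternatives it ran from -0.51 (array quality weights) to -0.03 (retina genes as a covariate). Leaving out the arrays that stood apart on Gnat1 was chosen after seeing the data.

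With the replicate number as a block, 0 rod genes were called (lowest adjusted p 0.78 for all hypoxia minus all normoxia). The labels do not say whether equal numbers mark paired samples, and the correlations between arrays do not settle it. Of 131 pairs of arrays with the same number in different groups, 52 correlated above 0.1. Their mean was 0.08 against -0.01 for other pairs, and 4 of 10 numbers had a mean above 0.1. For 15 of 56 arrays the best match in another group had the same number. No chance level was computed for these counts.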
